A study of Mus musculus with 40 samples.

Results

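Loss of Slc13a5 was compared with intact Slc13a5 in mouse cerebellum over all 40 libraries of the series, 21 with the loss and 19 without it. The members were chosen by the genotype in the labels: INDY and DKO libraries formed the side with the loss, and WT and CSB libraries the intact side. All libraries were made from total RNA depleted of ribosomal RNA, taken from cerebella of C57BL6 males. Their genotype was WT, INDY, CSB or DKO, and they were fed either the standard diet, SD, or the ketogenic one, KD. The groups held 4 WT SD, 6 INDY SD, 4 WT KD, 6 INDY KD, 6 CSB SD, 4 DKO SD, 5 CSB KD and 5 DKO KD libraries, and each library is named here by its group and its number in the title. All groups share the sex, strain and tissue in the labels, and age and allele construction are not given in the sources used here. INDY is the common name of mice lacking Slc13a5, CSB is the product of Ercc6, and DKO carries both genotypes.

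Slc13a5 encodes NaCT, a sodium-coupled carrier of the plasma membrane that brings citrate from the blood or extracellular fluid into the cell. In the cytosol, citrate is split by Acly to acetyl-CoA, the building block of fatty acids and sterols and the donor for histone acetylation. Citrate also slows glycolysis and activates acetyl-CoA carboxylase. Loss of the carrier is known for its effects on liver lipid metabolism in mice and for an early epileptic encephalopathy in humans. The genes that bring citrate across membranes and those that use it were therefore described one by one.

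Each difference is the average of 4 group differences with equal weight: INDY SD minus WT SD, INDY KD minus WT KD, DKO SD minus CSB SD, and DKO KD minus CSB KD. Values are the authors' normalised estimates of reads per gene, and a difference is in log2(value + 1). Of 21367 genes tested with limma, 3 passed an adjusted p of 0.05 (percent called 0.0140): Slc13a5, Gm28438 and mt-Nd3. Gm28438 is a nuclear copy of mt-Nd3, the mitochondrial gene of a subunit of respiratory complex I. The next genes by p were Gm12671 and Gm7336, both copies of Gapdh, followed by Gapdh itself, the glycolytic enzyme glyceraldehyde-3-phosphate dehydrogenase. Gm13394, another Gapdh copy, was also among the 10 genes with the smallest p that did not pass.

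The sequences below are shown because the genes beside Slc13a5 at the top of the comparison differ from their parent genes by so few bases that a read can fit both. They come from GENCODE M21 transcripts on GRCm38. Gm28438 is annotated as an unprocessed pseudogene on chromosome 1, 24612775 to 24613119, and mt-Nd3 as a protein-coding gene of the mitochondrial chromosome M, 9459 to 9806. Gm28438 has 345 bases, and it differs from mt-Nd3 at 1 of them. The capital marks that base, T3C, with mt-Nd3's base first and positions counted from the first base of each transcript. Bases 1 to 60 are:
Gm28438: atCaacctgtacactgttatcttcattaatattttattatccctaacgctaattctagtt
mt-Nd3: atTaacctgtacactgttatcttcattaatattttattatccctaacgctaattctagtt

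Gapdh is on chromosome 6, 125161715 to 125166467. The processed pseudogenes Gm12671 (chromosome 4, 91851668 to 91852669), Gm13394 (chromosome 2, 28933610 to 28934609) and Gm7336 (chromosome 7, 51746647 to 51747878) are copies of it. Gm12671 equals the Gapdh transcript over all of its 1002 bases. Gm13394 differs from it at 1 of 1000 compared bases, A346C, with Gapdh's base first and the position counted in Gm13394. Bases 316 to 375 of Gm13394 and 408 to 467 of Gapdh, with that base in capitals, are:
Gm13394: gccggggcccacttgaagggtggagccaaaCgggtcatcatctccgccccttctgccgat
Gapdh: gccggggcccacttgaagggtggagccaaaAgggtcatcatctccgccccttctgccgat
Gm7336 matched Gapdh at 1229 of 1232 aligned bases. In all, 22 annotated genes had a transcript that matched Gapdh with at least 99% identity over at least 90% of the shorter transcript, of which 4 had a mean value of 10 or more. The deposited values hold no reads, so which base the RNA of each library carried was not analysed here.

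Slc13a5 (chromosome 11, 72241989 to 72267222 in GRCm38) checked the labels. It was listed at 0 in all 6 INDY SD and all 4 DKO SD libraries, at 0 in 5 of 6 INDY KD libraries with 0.824 in INDY KD 15, and at 0 in 4 of 5 DKO KD libraries with 0.934 in DKO KD 47. The 4 WT SD libraries held 137, 108, 116 and 161, and the 4 WT KD libraries held 82.1, 160.0, 114 and 95.1. The 6 CSB SD libraries ran from 95.3 to 128 with a median of 113, and the 5 CSB KD libraries held 135, 93.2, 146, 144 and 155. No library with the loss came near the lowest intact library. The difference was -6.84 (SE 0.11, limma adjusted p = 7.91e-34), which depends on the added 1 because the loss side was at or near 0. Per kilobase of annotated exon, the intact level of Slc13a5 was 24.8 ± 4.81 (SD, n = 19).

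**Figure D1:**
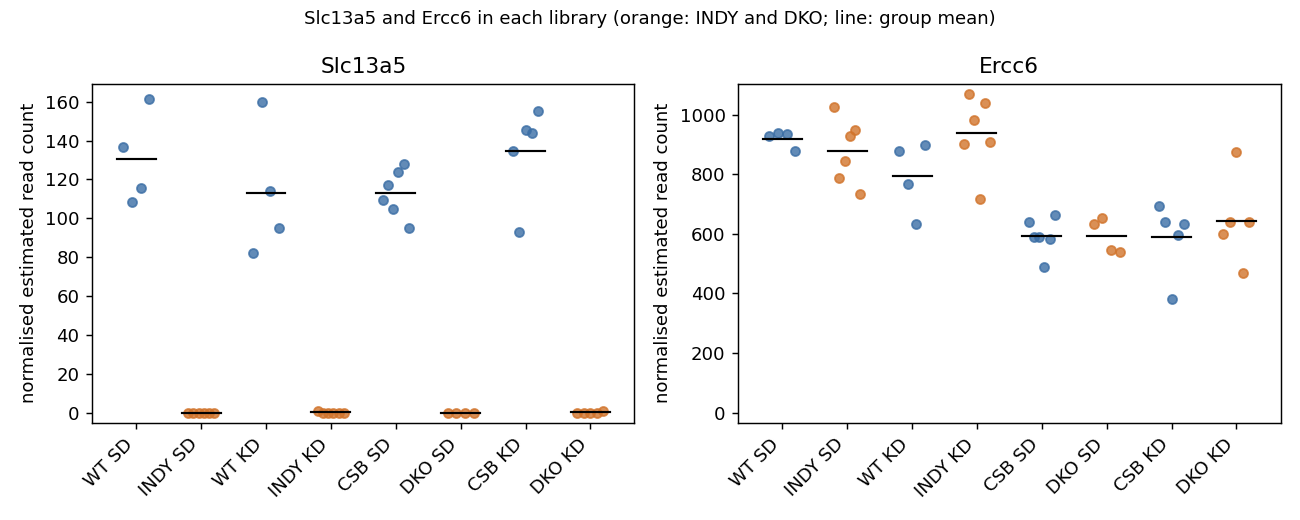
Normalised estimated read count (vertical axis) of Slc13a5 and Ercc6 in each library of the 8 groups, with INDY and DKO in orange, WT and CSB in blue and the group mean as a line. Slc13a5 lay at 82.1 or more in every WT and CSB library and under 1 in every INDY and DKO library, whereas Ercc6 was lower in the CSB and DKO groups with overlap.

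Ercc6, the repair gene altered in the CSB genotype, served as the check of the other factor. Its mean value was 919 ± 27.3 in WT SD (SD, n = 4), 879 ± 109 in INDY SD (n = 6), 794 ± 122 in WT KD (n = 4) and 937 ± 126 in INDY KD (n = 6). In the groups with the CSB genotype, Ercc6 was 593 ± 60.04 in CSB SD (n = 6), 594 ± 59.0 in DKO SD (n = 4), 590 ± 121 in CSB KD (n = 5) and 645 ± 147 in DKO KD (n = 5). The ranges overlapped, since Ercc6 was at 876 in DKO KD 23 and at 633 in the library labelled WT KD 25, both of which stayed in every average. Averaged over diet and Slc13a5, the CSB genotype differed by -0.55 in Ercc6, which passed the test. With Slc13a5 loss, Ercc6 differed by 0.07 (SE 0.07, 95% interval -0.07 to 0.22).

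The libraries differed in the RNA of other tissues. Sums of values ran from 23736702 to 32247186 per library after the authors' scaling, so they are not depths, and the depth is unknown. The 16 granule cell markers, which define the labelled tissue, had a mean log2 level of 8.03 to 12.06 over the libraries. The 21 forebrain genes, such as Neurod6 and Bcl11b, had a level of 5.70 to 8.35 in the 19 intact libraries and 5.88 to 10.28 in the 21 libraries with the loss. Their summed values ran from 8665 to 22625 and from 9471 to 54835. A forebrain level above 6.5 was found in 14 libraries: 3 of INDY SD, 3 of WT KD, 2 each of INDY KD, DKO SD, CSB KD and DKO KD, and none of WT SD and CSB SD. DKO SD 1 alone held the highest forebrain level (10.28), the lowest granule cell level (8.03) and the lowest Purkinje cell level (9.21). The next were 8.85 for forebrain in INDY KD 21 and 9.94 for granule cells in CSB SD 16. DKO SD 1 is 1 of 4 DKO SD libraries and stayed in the DKO SD medians given below. The 20 liver genes, such as Mup20 and Fga, had a level of 2.22 to 9.65 with Slc13a5 intact and 2.18 to 9.29 with the loss.

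In the averaged difference, the forebrain genes had a median of 0.58 with 20 of 21 above 0, the liver genes a median of 1.00 with 20 of 20 above 0, and the granule cell markers a median of -0.36 with 2 of 16 above 0. The Purkinje cell markers had a median of -0.24 with 1 of 17 above 0, beside 0.01 over all 21367 genes. None of these genes passed the test. No forebrain or liver gene had an unadjusted p under 0.05, and 3 granule cell markers (Pax6, Reln and En2) did, all lower, beside 4.51% of all genes. Without the 14 libraries of high forebrain level, the granule and Purkinje medians were 0.07 and 0.07 and the median of the 18 forebrain genes still tested 0.06, while the liver median was 1.73. That fit keeps 1 WT KD library, which is assumed to vary like the other groups. With all libraries and forebrain level as a covariate, the forebrain median was 0.03, and the granule and Purkinje medians were -0.19 and -0.11, with 2 of 16 and 1 of 17 above 0. With liver level added, the granule and Purkinje medians were -0.21 and -0.14. The forebrain medians of 0.06 and 0.03 test nothing, since the same genes set the cut and the covariate. In bulk RNA, fewer cells of a type and less RNA per cell cannot be told apart.

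mt-Nd3 had 1 of the 2 calls beside Slc13a5. Its values in WT SD libraries 39 to 42 were 8139, 13780, 11768 and 14124, and in the 4 WT KD libraries they were 14424, 15172, 17939 and, in WT KD 28, 33112. The 4 DKO SD libraries held 35263, 30137, 23567 and 44080, and the 5 DKO KD libraries 26821 to 34859. The 6 CSB SD libraries ran from 12577 to 18556 with a median of 14485, and the 5 CSB KD libraries from 14266 to 21514. DKO and CSB libraries therefore did not overlap on either diet. In INDY the level was split: INDY SD held 12530 to 17299 in 4 libraries and 25972 and 30101 in INDY SD 32 and 33, and INDY KD held 10792 to 28078 with no clear step. The averaged difference of mt-Nd3 was 0.64 (SE 0.12, 95% interval 0.40 to 0.88, limma adjusted p = 0.0312).

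Gm28438 moved the other way in the same libraries. It was listed at 0 in 12 libraries and lay between 59.0 and 179 in INDY SD 32, INDY SD 33 and DKO SD 35. These 15 libraries were all 9 of DKO, 5 of INDY (INDY SD 32 and 33, INDY KD 15, 45 and 46) and 1 of WT (WT KD 28), and none of CSB. In the other 25 libraries Gm28438 was at 5462 or more, up to 18385 in CSB KD 13. The averaged difference of -7.45 (SE 1.23, limma adjusted p = 0.00941) is therefore a difference in how many libraries were at or near 0, and no fold is given. Within INDY and within WT, Gm28438 was present in some libraries and near 0 in others of 1 genotype and diet, so its state did not follow Slc13a5 alone.

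When mt-Nd3 and Gm28438 were added together, the sum was 24492 ± 5432 in the intact libraries (SD, n = 19) and 27327 ± 6122 with the loss (SD, n = 21), with overlapping ranges of 17743 to 39899 and 16254 to 44080. The difference of the summed mt-Nd3 and Gm28438 was 0.19 (SE 0.08, 95% interval 0.02 to 0.36, limma adjusted p = 0.512). By group difference, the summed value changed by 0.31 in INDY SD, -0.22 in INDY KD, 0.46 in DKO SD and 0.21 in DKO KD, none with an adjusted p under 0.05. The separate call of mt-Nd3 ended when any 1 of 20 libraries was left out (WT SD 39 and 41; WT KD 7, 12 and 25; CSB SD 6, 16 and 31; CSB KD 18, 19, 43 and 44; INDY SD 32; INDY KD 15 and 45; DKO SD 1, 34 and 36; DKO KD 2 and 24), with limma adjusted p up to 0.101 and a log2 difference of 0.60 to 0.71 over all 40 omissions. The mt-Nd3 call also ended with no filter, with quantile normalisation, with the additive fit and without the libraries of high forebrain level, with limma adjusted p up to 0.804 and a log2 difference of 0.59 to 0.74 over all 53 alternatives.

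Gapdh and its copies formed the second set. Gm12671 was listed at 0 in 12 libraries: all 5 of CSB KD, 4 of 6 of CSB SD (CSB SD 6, 8, 16 and 31), WT KD 7 and 25, and INDY KD 46. In each of these 12 libraries Gm13394 was at 8204 or more and Gm7336 at 1349 or more. In the other 28 libraries Gm12671 lay between 4398 and 10468, Gm13394 at 147 or less and Gm7336 at 31.9 or less. The 2 states thus exchanged Gm12671 for Gm13394 and Gm7336, and both states occurred in CSB SD, WT KD and INDY KD. All 9 DKO libraries, all 6 INDY SD libraries and all 4 WT SD libraries had Gm12671.

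Gm12671 differed by 6.48 (SE 1.25, limma adjusted p = 0.0595), Gm7336 by -4.55 (SE 0.95, adjusted p = 0.128) and Gm13394 by -5.40 (SE 1.31, adjusted p = 0.511). Gapdh itself lay between 14421 and 28486 in all libraries and differed by 0.28 (SE 0.06, 95% interval 0.15 to 0.41, limma adjusted p = 0.298). Gapdh ran from 22180 to 28486 in the 9 DKO libraries and from 15012 to 25236 in the 11 CSB libraries. The sum of Gapdh and its 4 copies was 29392 ± 4864 with Slc13a5 intact (SD, n = 19) and 30924 ± 3364 with the loss (SD, n = 21). That sum differed by 0.10 (SE 0.05, 95% interval -0.01 to 0.21, limma adjusted p = 0.512). With both sets summed, 1 of 21362 features passed the test, Slc13a5, and the next was Cd300lb with an adjusted p of 0.512.

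**Figure D2:**
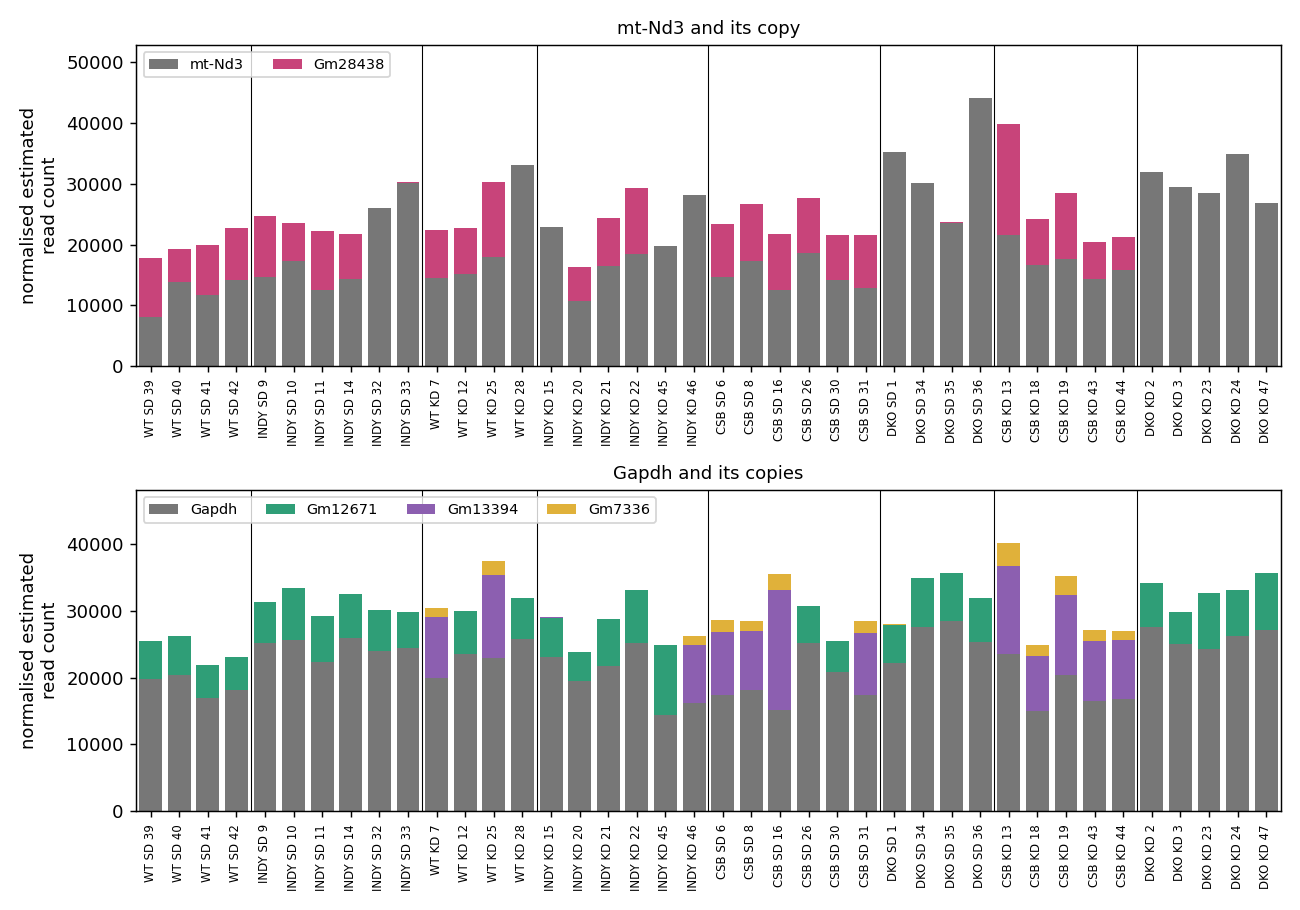
Normalised estimated read count (vertical axis, stacked from 0) of mt-Nd3 and Gm28438 (upper panel) and of Gapdh, Gm12671, Gm13394 and Gm7336 (lower panel) in each library, with lines between groups. Gm28438 is at or near 0 in 15 libraries, among them all 9 of DKO, and Gm12671 is replaced by Gm13394 and Gm7336 in 12 libraries, among them all 5 of CSB KD.

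After Slc13a5, the first gene by p outside both sets was Cd300lb, a receptor of myeloid cells, at -0.97 (SE 0.23, 95% interval -1.44 to -0.50, limma adjusted p = 0.506). Its values were low and overlapped: 4.30 to 26.7 in the 8 WT libraries, 0.930 to 8.14 in the 12 INDY libraries, 5.24 to 16.0 in the 11 CSB libraries and 1.78 to 10.5 in the 9 DKO libraries. Donson, a DNA replication factor, differed by -0.24 (SE 0.06) with an adjusted p of 0.511, with 255 to 405 in INDY and 317 to 414 in WT. The other 4 of the 10 next genes by p were Gm7972 (-0.59), Gm553 (0.85), Gm37254 (-0.38) and Gm20387 (0.34), each with an adjusted p of 0.511. Across all genes, 2004 had an unadjusted p under 0.05 (9.38%), 1041 higher and 963 lower.

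How small an effect could be bounded was read from the 95% interval of each gene. Folds here are of value + 1, so at low values the bound on the fold of the value itself is wider. The whole interval lay within 1.5-fold in either direction for 16844 of 21367 genes (78.8%), within 1.2-fold for 9270 (43.4%) and within 2-fold for 20168 (94.4%). The median gene allowed at most a 1.24-fold difference. With intervals widened to hold jointly over all genes, 44.2% of genes were bounded within 1.5-fold, 67.4% within 2-fold and 5.24% within 1.2-fold. Protein-coding genes were bounded more often, with 84.7% of 16143 within 1.5-fold and 95.04% within 2-fold.

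The bound went with expression level. Among genes with a mean value under 10, 26.8% were bounded within 1.5-fold, whereas 95.4% were among genes with a mean of 300 to 1000 and 97.5% among those of 3000 or more. In the lowest class the added 1 narrows the fold, so its share is too high for the values themselves. The residual SD between libraries of a group, after limma's variance moderation, was 0.77 on the log2 scale for the median gene of the lowest class. It was 0.17 for that of the highest. A single group difference was less precise: its median standard error was 0.20 against 0.10 for the average, and 46.6% to 55.1% of genes were bounded within 1.5-fold. An effect present in 1 group difference alone is diluted in the average, so these bounds concern the average only.

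**Figure D3:**
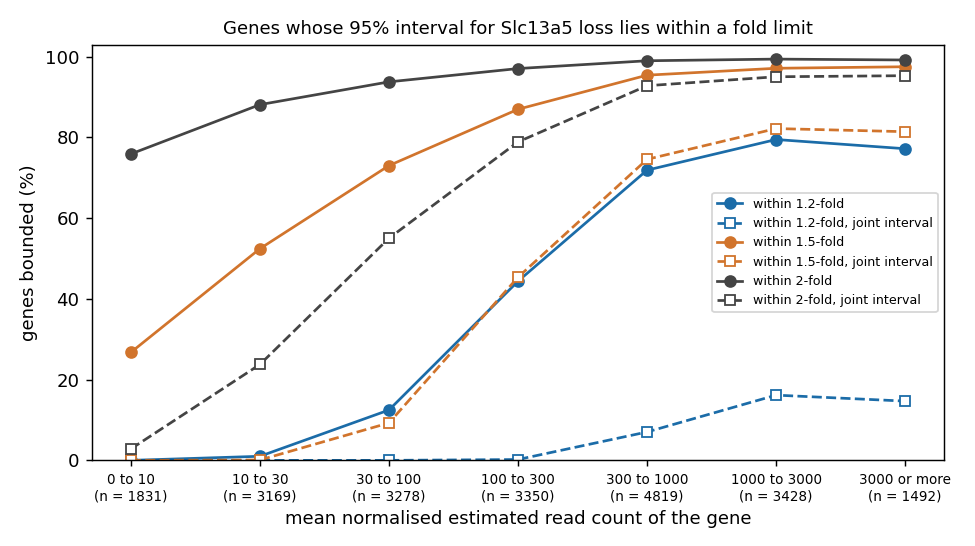
Share of tested genes (vertical axis, %) whose 95% interval of the averaged difference lies within 1.2-, 1.5- or 2-fold, by mean value of the gene (horizontal axis), for single intervals (solid) and for intervals that hold jointly over all genes (dashed). The share within 1.5-fold goes from 26.8% in the lowest class to 97.5% in the highest for single intervals. Folds are of value + 1.

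The list of citrate and dicarboxylate carriers also holds related carriers of sulfate and sugar phosphate. It showed no call other than Slc13a5 itself among 9 tested genes, and Slc13a2 did not pass the filter. The median of the 9 genes was 0.02. Slc25a1, the mitochondrial citrate carrier that exports citrate to the cytosol, had 535 ± 132 with Slc13a5 intact (SD, n = 19) and 562 ± 94.0 with the loss (SD, n = 21), a difference of 0.11 (SE 0.10, 95% interval -0.08 to 0.31). Slc13a3, a high-affinity dicarboxylate carrier of the plasma membrane in the same family, differed by 0.02 (95% interval -0.15 to 0.20). Per kilobase of exon, Slc13a3 was at 77.3 ± 13.8 and Slc25a1 at 247 ± 61.1 in the intact libraries (SD, n = 19), both above the 24.8 of Slc13a5.

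Slc13a1, a renal sulfate carrier of the same family, had the smallest p of the other carriers, with a difference of -0.32 (SE 0.12, limma adjusted p = 0.511). Its 4 WT SD libraries held 151, 111, 107 and 102.7 and its 6 INDY SD libraries 53.8 to 116, while INDY KD ran from 40.0 to 153 around the 73.0 to 87.1 of WT KD. In the CSB background on SD, the 6 CSB libraries held 78.3 to 133 and the 4 DKO libraries 50.2 to 70.8, without overlap, and on KD the ranges overlapped. Slc13a4, a sulfate carrier, was the least precise carrier at 0.28 (95% interval -0.40 to 0.97). Its INDY KD libraries held 202 to 928 and its WT KD libraries 19.4 to 613. The choroid plexus genes moved with it: their median difference was -0.83 in INDY SD, 1.05 in INDY KD, -0.34 in DKO SD and 0.53 in DKO KD, and Slc13a4 gave -0.36, 1.67, -0.25 and 0.07. The 18 choroid plexus genes had a level of 5.20 to 9.40 with Slc13a5 intact and 6.30 to 9.78 with the loss, and their part in the result was not tested.

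Slc25a10 and Slc25a11, the mitochondrial dicarboxylate and oxoglutarate carriers, differed by 0.05 and 0.05, each bounded within 1.2-fold. Slc25a21, a carrier of oxodicarboxylates, differed by -0.01 (95% interval -0.32 to 0.31), and Slc37a1, a sugar phosphate carrier, by -0.09 (95% interval -0.28 to 0.10).

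No gene of cytosolic citrate use and lipid synthesis passed the test among 22 tested, beside 0.0140% of all genes. Of these 22 genes, 16 were bounded within 1.2-fold and 21 within 1.5-fold, and their median was 0.04. Acly, which cleaves citrate, had 6288 ± 1162 with Slc13a5 intact (SD, n = 19) and 6489 ± 1166 with the loss (SD, n = 21), a difference of 0.06 (95% interval -0.11 to 0.23). Fasn, the fatty acid synthase, had 5546 ± 897 and 5599 ± 706, a difference of 0.02 (95% interval -0.12 to 0.15). Acaca, the acetyl-CoA carboxylase of lipid synthesis, differed by 0.13 (95% interval -0.01 to 0.27), and Acacb, its mitochondrial form, by -0.03 (95% interval -0.26 to 0.21).

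The other routes to cytosolic acetyl-CoA and NADPH were as narrow. Acss2, which makes acetyl-CoA from acetate, differed by 0.05, Acss1 by 0.10, Me1, the malic enzyme, by 0.07, Idh1 by 0.11, Mdh1 by 0.07 and Aco1, the cytosolic aconitase, by 0.02. Idh1, at 1.21-fold, had the widest bound of these 6. The desaturases and elongases Scd1, Scd2, Fads1, Elovl5 and Elovl6 lay between -0.03 and 0.10. Fads2, a desaturase of polyunsaturated fatty acids, had the smallest p of the list at 0.18 (SE 0.06, 95% interval 0.05 to 0.31, limma adjusted p = 0.511), from 0.38 in INDY SD, -0.03 in INDY KD, 0.31 in DKO SD and 0.05 in DKO KD.

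Among regulators, Srebf1, a driver of lipogenic transcription, differed by 0.02 and Mid1ip1, a partner of acetyl-CoA carboxylase, by 0.02. Mlycd, which degrades malonyl-CoA, differed by 0.09, Thrsp by -0.08 and Pnpla3 by -0.09. Mlxipl, which encodes the carbohydrate sensor ChREBP, was the 1 gene of the list not bounded within 1.5-fold, at -0.24 (95% interval -0.59 to 0.11). Its 4 group differences went both ways, at 0.03 in INDY SD, 0.79 in INDY KD, -0.60 in DKO SD and -1.17 in DKO KD. On KD, Mlxipl held 12.7 to 39.5 in CSB and 7.93 to 14.5 in DKO, and 8.93 to 28.0 in WT and 15.1 to 56.2 in INDY, so that all 4 ranges were low and those compared overlapped. The difference of the differences between the CSB and the intact background was -1.29 (SE 0.35, limma adjusted p = 1.00).

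**Figure D4:**
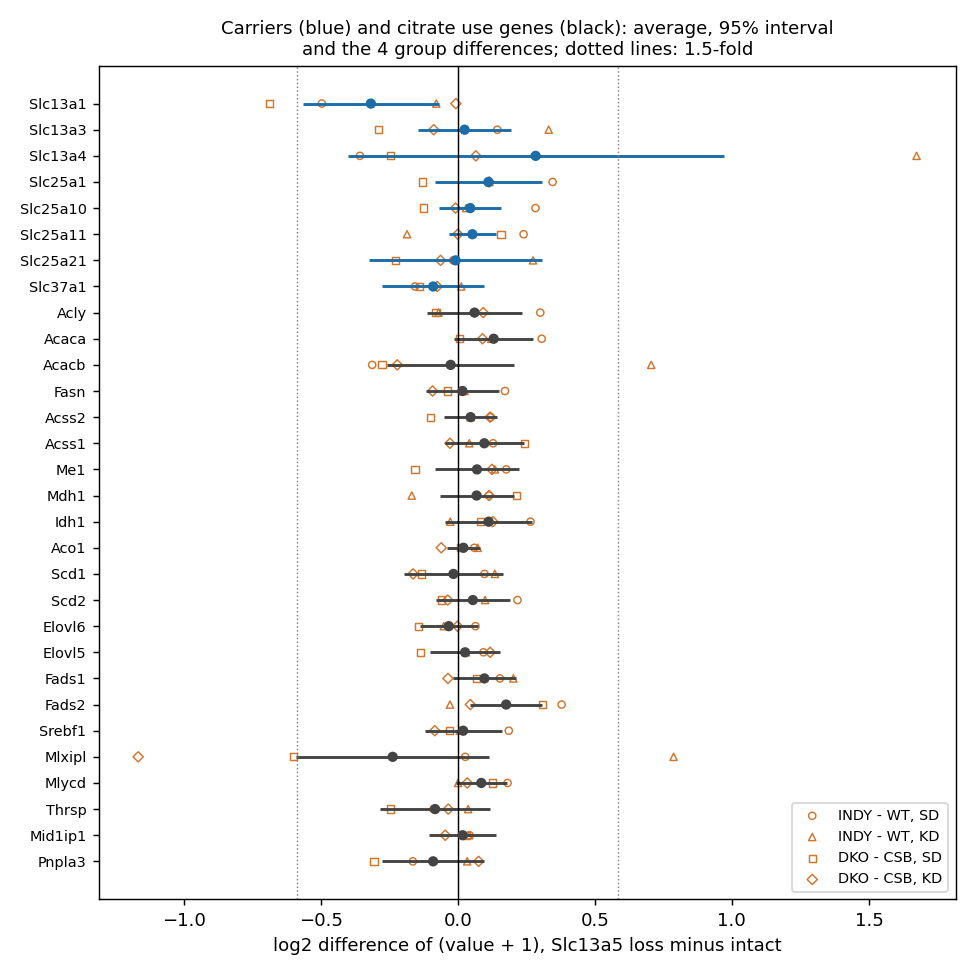
Log2 difference of (value + 1), loss minus intact (horizontal axis), for 30 genes of the carrier list (blue) and the citrate use list (black), without Slc13a5. Filled points are the average, bars its 95% interval, open symbols the 4 group differences and dotted lines 1.5-fold. Slc13a4 and Mlxipl reach past 1.5-fold, and the group differences scatter on both sides of 0 for most genes.

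Genes of neighbouring pathways gave no call either, among 23 genes of the TCA cycle, 19 of glycolysis, 24 of cholesterol synthesis, 37 nuclear genes of oxidative phosphorylation, 26 of fatty acid oxidation, 12 of ketone body use, 22 of AMPK signalling and mitochondrial biogenesis, and 20 of histone acetylation. The TCA genes had a median of 0.05, with 22 of 23 bounded within 1.2-fold. Sdhb, a succinate dehydrogenase subunit, had the smallest p of that list at 0.15 (SE 0.07, limma adjusted p = 0.511). The oxidative phosphorylation genes had a median of 0.07 with 36 of 37 above 0, beside 51.7% of all genes. Of the 37, 36 were bounded within 1.2-fold, and Cox4i1 led at 0.15 (SE 0.07). With the CSB genotype, the median of the oxidative phosphorylation genes was 0.11. Their group medians were 0.22 in INDY SD, -0.12 in INDY KD, 0.13 in DKO SD and 0.08 in DKO KD.

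Of the 19 glycolysis genes, 7 had an unadjusted p under 0.05, all higher, beside 4.87% of all genes. They included Pfkl, a phosphofructokinase subunit, at 0.19 (SE 0.07), Eno1, an enolase, at 0.12 (SE 0.05), Ldha, a lactate dehydrogenase subunit, at 0.21 (SE 0.09), and Gapdh at 0.28 as above. The median was 0.08, from 0.27 in INDY SD, -0.13 in INDY KD, 0.11 in DKO SD and 0.08 in DKO KD. After quantile normalisation the medians of glycolysis, oxidative phosphorylation and the TCA cycle were 0.04, 0.04 and 0.02, and that of citrate use and lipid synthesis was -0.001 in place of 0.04. INDY KD had the opposite sign to the other groups in each of the 3 lists named first. The forebrain genes had a median of -0.46 in INDY KD and -0.12 in DKO KD, against 0.98 in INDY SD and 1.91 in DKO SD. In DKO KD their sign was thus opposite to that of the 3 lists. With forebrain level as a covariate, the averaged medians of glycolysis, oxidative phosphorylation and the TCA cycle were 0.07, 0.07 and 0.06, and with liver level added they were 0.07, 0.07 and 0.05. Without the 14 libraries of high forebrain level they were 0.05, 0.01 and 0.04.

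In cholesterol synthesis the median was 0.10, with 14 of 24 bounded within 1.2-fold. Tm7sf2, a sterol reductase, differed by 0.44 (SE 0.16, limma adjusted p = 0.511), and Srebf2, the main activator of the pathway, by 0.14 (SE 0.07). In ketone body use, where 11 of 12 genes were bounded within 1.5-fold, the median was 0.03, and Bdh1, the first enzyme of ketone use, differed by 0.06 (95% interval -0.06 to 0.17). In the AMPK list all 22 genes were bounded within 1.5-fold. Sirt3, a mitochondrial deacetylase, differed by 0.19 (SE 0.07, limma adjusted p = 0.511) and Prkag1, an AMPK subunit, by 0.10 (SE 0.04). Among histone acetylation genes, all 20 bounded within 1.5-fold, Kat2a, which encodes the acetyltransferase GCN5, differed by 0.14 (SE 0.06).

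No gene was called in the remaining lists either. Of 26 genes of fatty acid oxidation and PPAR targets, 24 were bounded within 1.5-fold, and Fabp7, a lipid-binding protein of radial glia, differed by -0.17 (SE 0.08). Of 22 genes of neurotransmitter and glutamine synthesis, 19 were bounded, with a median of 0.06, and Slc1a2, an astrocytic glutamate carrier, differed by 0.22 (SE 0.10). All 21 antioxidant and NRF2 targets were bounded, with a median of 0.05, as were 16 of 17 p53 targets with a median of 0.01. Of 15 tested genes of zinc and metal handling, 14 were bounded, and Slc30a10, a manganese exporter, differed by 0.24 (SE 0.11).

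Markers of other cell types showed no call. All 17 oligodendrocyte markers and all 16 endothelial and pericyte markers were bounded within 1.5-fold, with medians of 0.08 and 0.05, as were 14 of 16 astrocyte markers with a median of -0.02. Itm2a, an endothelial membrane protein, differed by 0.17 (SE 0.06). Of 9 tested erythroid genes, 5 were bounded, and Slc4a1, the anion exchanger of red cells, differed by -0.79 (SE 0.38). Immediate early genes, which are induced by neuronal activity, were less precise, with 5 of 18 bounded and a median of 0.23 in the average. Their group medians were 0.11 in INDY SD, -0.07 in INDY KD, 0.96 in DKO SD and -0.08 in DKO KD. With forebrain level as a covariate, the averaged median of the immediate early genes was 0.02, and with liver level added it was -0.06. The part of forebrain RNA in their difference was not tested. Of 20 clock genes, 19 were bounded, with a median of 0.01, and all 13 genes of stress and RNA quality were, with a median of 0.14 that was 0.03 after quantile normalisation.

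**Figure D5:**
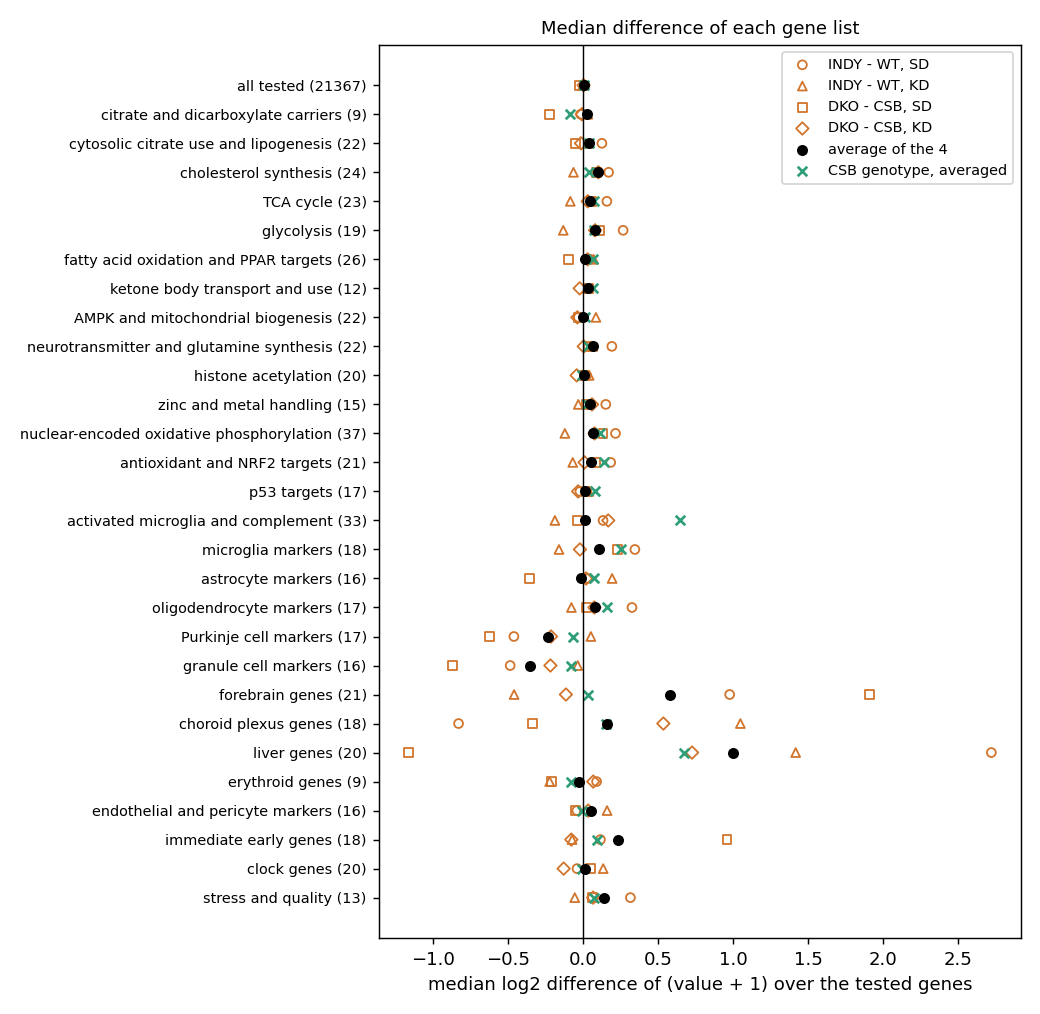
Median log2 difference of (value + 1) (horizontal axis) over the tested genes of each list (number in brackets): the averaged Slc13a5 loss (black), its 4 group differences (open orange symbols) and the averaged CSB genotype (green crosses). Lists of metabolism lie near 0 in the average, forebrain, liver and choroid plexus lists scatter widely between the 4 groups, and activated microglia genes lie at 0.01 for Slc13a5 loss and 0.64 for CSB.

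The CSB genotype, averaged in the same fit with the same standard errors, gave the scale. It called 170 genes (0.796%), 121 higher and 49 lower, against 3 for Slc13a5 loss, and 70 genes (0.328%) differed between both effects. The activated microglia and complement list, whose genes were chosen with the results of CSB known, had 25 of 33 genes called higher with CSB (0.566% of all genes) and 0 of 33 with Slc13a5 loss, and 21 of 33 differed between both effects. Its median was 0.64 for CSB and 0.01 for Slc13a5 loss, where 28 of the 33 genes were bounded within 1.5-fold. Itgax, an integrin of activated microglia, differed by 2.15 (SE 0.20) with CSB and by -0.30 (SE 0.20) with Slc13a5 loss, and the difference of the 2 effects was -2.45 (95% interval -2.97 to -1.93). Lyz2, a lysozyme of myeloid cells, gave 0.91 and -0.25, with a difference of the effects of -1.16 (95% interval -1.63 to -0.69, limma adjusted p = 0.00715). Of 18 general microglia markers, none was called with Slc13a5 loss and 17 were bounded within 1.5-fold, with P2ry12, a purinergic receptor, at 0.20 (SE 0.10). Their median was 0.10, from 0.34 in INDY SD, -0.16 in INDY KD, 0.23 in DKO SD and -0.02 in DKO KD.

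Each group difference was also tested alone. INDY SD minus WT SD and DKO SD minus CSB SD each called 1 gene (0.00468%), Slc13a5, although 14.3% and 13.6% of genes had an unadjusted p under 0.05. On KD that share was 6.59% in INDY and 1.73% in DKO. Forebrain levels above 6.5 were found in 3 INDY SD and 2 DKO SD libraries and in none of WT SD and CSB SD. On KD they were found in 3 WT, 2 INDY, 2 CSB and 2 DKO libraries. On SD, a high forebrain level thus occurred only with the loss, and its part in these shares was not tested. The INDY SD count became 2 without INDY KD 20. INDY KD minus WT KD called 2 genes (0.00936%), Slc13a5 and Heg1, an endothelial junction receptor. Heg1 held 837, 802, 730 and 652 in the 4 WT KD libraries and 1024 to 1336 in the 6 INDY KD libraries, without overlap, a difference of 0.68 (SE 0.12, limma adjusted p = 0.0304). Heg1 differed by -0.25 in INDY SD, -0.20 in DKO SD and -0.10 in DKO KD, none called. The count of 2 became 1 without WT KD 12, INDY KD 15, INDY KD 45 or INDY KD 46, 4 without WT KD 7 or WT KD 25, and 24 without WT KD 28.

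DKO KD minus CSB KD called 6 genes (0.0281%): Slc13a5, Gm28438, Gm12671, Gm7336, Catspere1 and Ifi202b. Heg1, Catspere1 and Ifi202b are named here after their values were seen. Catspere1, annotated as a pseudogene on chromosome 1, held 355, 252, 295 and 298 in DKO KD 2, 23, 24 and 47 but 7.52 in DKO KD 3, and 1.93 to 20.4 in the 35 libraries of other groups. Ifi202b, an interferon-inducible gene also on chromosome 1, held 21.6, 27.7, 22.3 and 17.1 in the same 4 libraries, was listed at 0 in DKO KD 3 and was at 4.23 or less in all other groups. Both genes were thus high in 4 of 5 libraries of 1 group, and neither was called in DKO SD, with differences of 0.45 and 0.09. The count of 6 became 1 when DKO KD 2, 23, 24 or 47 was left out, and 3 without CSB KD 13, 18, 19, 43 or 44.

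Whether the difference depended on diet or on the CSB background was tested in the same fit. With limma, 0 genes passed for KD minus SD, although 3658 (17.1%) had an unadjusted p under 0.05, and 0 passed for CSB background minus intact background, with 663 (3.10%). On SD the libraries of high forebrain level all had the loss, while on KD both sides held some, and their part in the 17.1% was not tested. Half-widths of the 95% interval were 0.41 for the median gene in both comparisons. Slc13a5 differed by 0.17 (SE 0.22) between diets and by -0.02 (SE 0.22) between backgrounds.

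Genes beside Slc13a5 were examined because a targeted locus can carry linked changes. The nearest 5 tested genes on each side (4930563E22Rik, Med31, Txndc17, Gm43951, 4933427D14Rik, Xaf1, Tekt1, Smtnl2, Mybbp1a and Spns2) differed by -0.05 to 0.23, and none passed the test. Within 1 Mb, 2 of 32 tested genes had an unadjusted p under 0.05 (6.25%), within 5 Mb 12.5% of 208, and within 15 Mb 9.29% of 495, beside 9.38% of all genes. None of these genes other than Slc13a5 was called.

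The number of calls depended on 1 choice in particular. With 1 surrogate variable taken from the residuals around the group means, 403 genes were called, 277 higher and 126 lower, with a median size of 1.24-fold. That variable leaves every difference as it was and lowers the median standard error from 0.101 to 0.0896. It is taken from the same residuals that set the standard error, so a higher count is built in. The 403 calls are therefore not read as more genes changed. The absolute correlation of that variable with forebrain level was 0.75. With 1 iteratively reweighted surrogate variable, chosen after the data were seen, the count was 3.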

How the data were processed

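Total RNA of 40 cerebellum libraries was analysed. The authors deposited, in a single table, a signal per gene and library, an estimated read count that they normalised. Bowtie2, Salmon, DESeq2 and the build mm9 are named, per the submitters' processing notes, and tool versions are not given in the sources used here. The raw counts and depth are unknown, so no counting interval was computed.

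Symbols and positions came from GENCODE M21 on GRCm38: of 54331 gene IDs, 53444 were found including the version suffix and 54097 ignoring it. Positions belong to annotated genes, not to the authors' alignments. Near-identical copies were found by aligning GENCODE transcripts with minimap2 2.31-r1302.

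Tested genes reached 10 in 4 or more libraries. The model, limma 3.58.1 on log2(value + 1) (R 4.3.3 with the package data.table in version 1.17.8, Python 3.11.15 and pandas 2.3.3, plots with matplotlib 3.10.9), had a mean per group, an intensity trend and robust variances. P-values are two-sided and Benjamini-Hochberg adjusted over all genes of a comparison. The fit was tested on simulated data, and the outcome is not reported here. The labels do not say that libraries of a group came from separate animals, so p-values measure the spread between libraries, which may be technical.

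The comparison and the 28 gene lists were chosen with earlier results of these data known. Named genes were Slc13a5, Ercc6, the called genes, the 10 next by p, all tested citrate genes, up to 4 genes of each other list by p, and the neighbours of Slc13a5. Alternatives covered pseudocounts of 0.5 and 5, filters, normalisation, weights, variance moderation, covariates and omitted libraries. Single-gene results of some list members are not reported here.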

Additional observations from a re-analysis of the deposited data

Results flagged for a closer look

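Among 120 sets of values within single groups, 8 had 1 library apart from the others by Dixon's criterion, which chance meets in about 1 in 20 sets. All values here are log2(value + 1). Slc13a5 was at 0.87 in INDY KD 15 and at 0.95 in DKO KD 47, where the other libraries of each group were at 0. Any value above 0 would have met the criterion there, so the rate of 1 in 20 does not apply to them. In CSB KD, Slc13a5 was low in library 18 at 6.56, against 7.08 to 7.29 in the others. Ercc6 was low in CSB KD 19 at 8.58, against 9.22 to 9.44. Cd300lb was low in WT SD 39 at 2.73 and in DKO SD 1 at 1.47, where the others held 3.94 to 4.05 and 3.32 to 3.39. Donson was high in INDY KD 20 at 8.66, against 8.26 to 8.36. Acly was high in DKO KD 24 at 12.94, against 12.58 to 12.65.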

How the results depend on the processing

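The averaged count of 3 became 5 with a pseudocount of 5, 6 with array quality weights, 403 with 1 surrogate variable, and 1 with an additive fit, without the libraries of high forebrain level (which leaves WT KD 1 library, assumed to vary like the others) or, added after the data were seen, with copies summed. It was 2 with no filter and with quantile normalisation, and 2 to 6 with each library left out, 6 without CSB SD 26 and 5 without WT KD 28 or INDY KD 46. Slc13a5 was called in all 53 alternative fits that tested it, and Gm28438 in 51, the exceptions being the additive fit and the omission of the high forebrain libraries. The share bounded within 1.5-fold ran from 71.2% to 92.7% over these alternatives and was 77.0% to 80.6% with each library left out. By group difference, the counts of 1, 2, 1 and 6 (INDY SD, INDY KD, DKO SD, DKO KD) became 2, 5, 3 and 3 with no filter and 0, 1, 0 and 0 with a filter of 50 in 20 libraries, which removes Slc13a5. With array weights these were 85, 1, 2 and 12. INDY SD gave 638 with the surrogate variable and 1 to 2 with libraries left out (2 without INDY KD 20). INDY KD gave 1 with quantile normalisation, without trend or with forebrain and liver covariates, 19 without high forebrain libraries and 1 to 24 with libraries left out. DKO SD gave 3 with either covariate set, 1288 with the surrogate variable, 2 without high forebrain libraries and 1 to 1 with libraries left out. DKO KD gave 3 with a pseudocount of 0.5 or with copies summed, 2 without high forebrain libraries and 1 to 6 with libraries left out. The diet difference of 0 became 1370 with the surrogate variable, 1 without high forebrain libraries and 0 to 1 with libraries left out (1 without INDY KD 21). The background difference of 0 became 1 with no filter, 4 without high forebrain libraries and 0 to 2 with libraries left out (2 without DKO KD 3, 1 without INDY KD 22 or WT KD 28). The CSB count of 170 became 93 with the stricter filter, 473 with array weights, 507 with the surrogate variable and 120 to 1379 with libraries left out (1379 without INDY KD 22, 959 without DKO KD 23, 276 without INDY SD 33). The cause of these changes was not tested. No paired analysis was possible because library numbers are unique to each library and no number is shared between groups. Bounds were wider for genes of low expression.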
